A study of Homo sapiens with 6 samples.

Results

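The 8 genes described here are the regulators that decide how much of the sterol regulatory element-binding proteins (SREBPs) reaches the nucleus, with the ubiquitin ligase that trims the receptors those factors induce. They are INSIG1, INSIG2, SCAP, SREBF1, SREBF2, MBTPS1, MBTPS2 and MYLIP, taken by gene symbol out of 56832 rows in each count table. All 8 passed the filter on low counts, which left 17415 tested genes. Messenger RNA had been sequenced from HEK293T cells, a line of human embryonic kidney origin, in which GLO1 was knocked out. GLO1 encodes glyoxalase 1, which starts the clearance of methylglyoxal (MGO), a reactive by-product of glycolysis. One group was given 0.2 mM MGO in the medium overnight (libraries MGO 1, 3 and 4), and the other was left untreated (libraries Untreated 1, 2 and 4). Every library came from the GLO1 knockout, in medium with serum, so nothing here speaks of cells that have the enzyme, and the labels do not say how many knockout clones were used.

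SREBPs are made as membrane precursors of the endoplasmic reticulum (ER), where SCAP escorts them. When membranes hold ample cholesterol or oxysterols, INSIG proteins retain SCAP in the ER. When sterols are low, SCAP moves with its cargo in COPII vesicles to the Golgi, where the site-1 and site-2 proteases release the part that enters the nucleus and turns on genes of sterol and fatty acid supply. INSIG1 is itself a well known SREBP target, so the pathway feeds back on its own brake.

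Total counts ran from 19195920 to 21544749 in MGO libraries and from 41002134 to 45910040 in untreated libraries, so MGO levels come from shallower libraries, and depth was split as treatment was. The mitochondrial share of counts was 5.34% to 8.17% in MGO and 4.20% to 5.42% in untreated libraries, and was highest in the library numbered 1 of each group. GLO1 itself had 2434, 2641 and 3048 counts in MGO 1, 3 and 4 and 2365, 2246 and 1969 counts in Untreated 1, 2 and 4. Scaled for depth (TMM-scaled CPM), it was 2.92-fold higher in MGO, at 140.4 ± 5.30 CPM in MGO and 48.1 ± 2.57 CPM in untreated libraries (SD, n = 3 each, log2 fold change 1.55, edgeR adjusted p = 6.96e-25). A small coding lesion would not show in counts summed along the gene, so they leave the knockout unchecked. Of the markers looked at, KRT8, KRT18, CDH2, VIM and PAX2 were detected in every library. KRT8 (817 to 831 CPM in MGO, 512 to 535 CPM in untreated libraries), KRT18 (184 to 196 CPM in MGO, 119 to 119.8 CPM in untreated libraries) and VIM (432 to 467 CPM in MGO, 340.3 to 352 CPM in untreated libraries) were higher in MGO. CDH2 (93.6 to 96.6 CPM in MGO, 202 to 213 CPM in untreated libraries) and PAX2 (2.49 to 2.99 CPM in MGO, 12.5 to 14.1 CPM in untreated libraries) were lower. PTPRC, CD3E, PECAM1 and ALB stayed at or under 0.442 CPM. COL1A1 and EPCAM, listed as markers of other cell types, were present, COL1A1 at 10.6 to 12.1 CPM in MGO and 22.3 to 23.5 CPM in untreated libraries, and EPCAM at 149 to 154 CPM in MGO and 136 to 142 CPM in untreated libraries. The part of these markers and of the mitochondrial share in the results was not tested. With untreated counts thinned to MGO depth, 7 of the SREBP genes were called lower and 1 higher (edgeR, INSIG1 log2 fold change -4.13, MYLIP 0.80). Thinning evens out counts only, and what lay behind the difference in depth was not tested.

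Most of the SREBP machinery was lower in MGO. The ER retention genes fell most, INSIG1 18.1-fold and INSIG2 4.21-fold, followed by the site-1 protease gene MBTPS1 (3.04-fold). SCAP, SREBF1, SREBF2 and MBTPS2 fell by 1.25-fold to 1.46-fold, and MYLIP alone of the 8 rose (1.70-fold). All 8 were called (edgeR quasi-likelihood test, adjusted p under 0.05 over all tested genes), and in all 8 the groups did not overlap. Such calls were common, since 83.1% of all tested genes were called and 83.5% had groups that did not overlap. By direction, 7 of the 8 were lower where 41.2% of tested genes were, and 1 was higher where 41.8% were. In size, 3 of the 8 fell at least 2-fold, against 16.7% of tested genes, and 2 of them at least 4-fold, against 3.76%. The median log2 fold change was -0.51 over the 8 and 0.01 over all tested genes. Levels are TMM-scaled CPM, the count of a gene relative to the effective size of its library, so a change is one of proportion. Less messenger RNA per cell and fewer cells that make it cannot be told apart in such bulk samples.

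**Figure D1:**
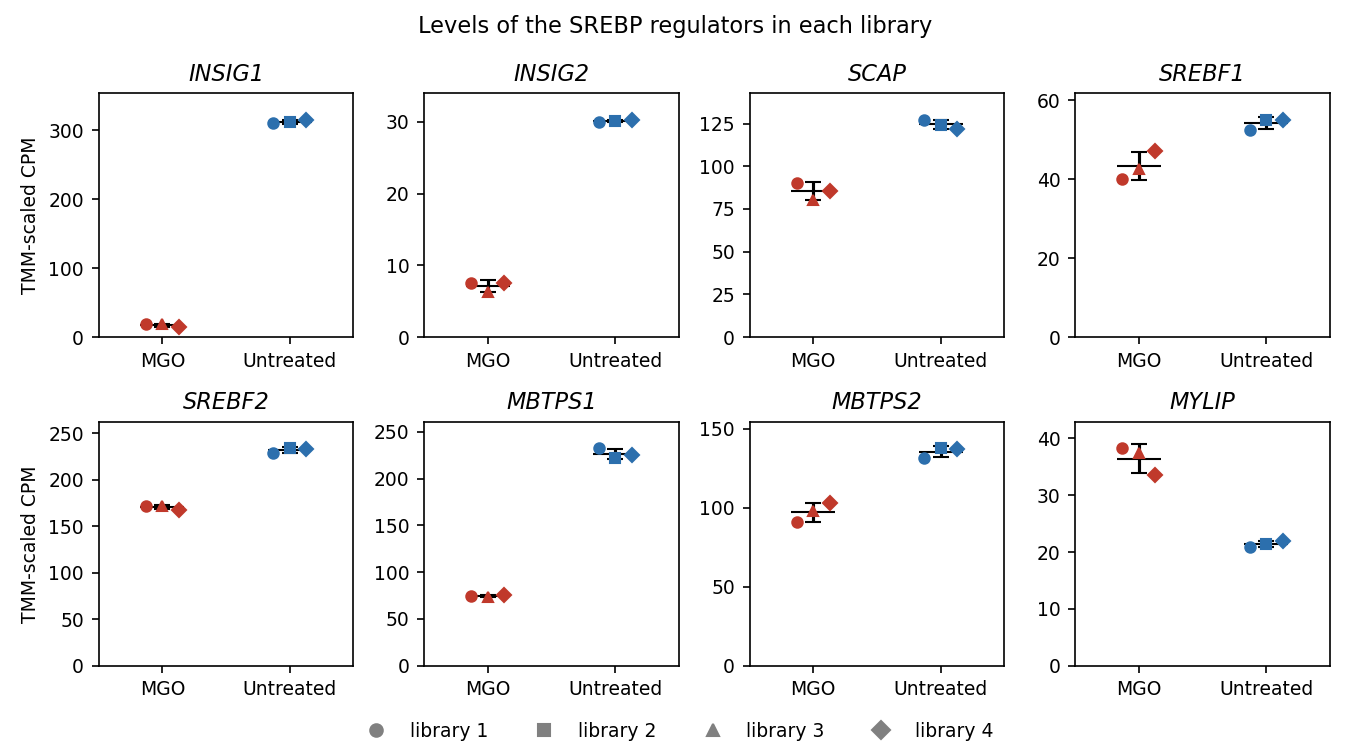
TMM-scaled CPM (vertical axes, from 0) of each SREBP regulator in the 3 MGO and 3 untreated libraries. Points are libraries, with a shape for each library number, and bars give the mean ± SD; INSIG1 stood at 14.7 to 18.9 CPM in MGO and 310.4 to 316 CPM in untreated libraries, and MYLIP is the member with its MGO points on top.

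INSIG1 carried the largest change. INSIG1 (chromosome 7, 155297776 to 155310235, plus strand, GRCh38) had 335, 353 and 309 counts in MGO 1, 3 and 4, against 14397, 14929 and 13442 counts in Untreated 1, 2 and 4. Scaled, these were 18.5, 18.9 and 14.7 CPM in MGO and 310.4, 312 and 316 CPM in untreated libraries. Every MGO library lay far below every untreated one, and MGO 4 was the lowest of all. The log2 fold change was -4.18 (SE 0.0595, 95% interval -4.30 to -4.05, adjusted p = 7.60e-27), and INSIG1 ranked 17 from the bottom among 17415 tested genes. The CV between MGO libraries was 13.5%, where counting error alone gives up to 5.69%.

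Promoter sequences are shown for the gene with the largest fall, for its paralog, for the only member that rises and for the member whose window holds a sterol regulatory element. They are RefSeq windows on GRCh38.p14, 250 bases before to 50 after the annotated start, written 5′ to 3′ along the gene. Capitals mark matches, on either strand, to TCACNCCAC (sterol regulatory element, GTGGNGTGA on the other strand), CCAAT (the NF-Y site, ATTGG on the other strand) and CACGTG (an E-box). No match overlapped another in these windows.
INSIG1, chr7:155297628-155297927, plus strand: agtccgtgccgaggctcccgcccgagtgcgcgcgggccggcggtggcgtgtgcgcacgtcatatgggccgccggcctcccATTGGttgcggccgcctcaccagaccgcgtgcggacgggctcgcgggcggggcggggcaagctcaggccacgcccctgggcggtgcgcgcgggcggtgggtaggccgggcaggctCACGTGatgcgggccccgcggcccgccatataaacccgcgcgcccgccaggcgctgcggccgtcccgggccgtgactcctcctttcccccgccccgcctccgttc
INSIG2, chr2:118088221-118088520, plus strand: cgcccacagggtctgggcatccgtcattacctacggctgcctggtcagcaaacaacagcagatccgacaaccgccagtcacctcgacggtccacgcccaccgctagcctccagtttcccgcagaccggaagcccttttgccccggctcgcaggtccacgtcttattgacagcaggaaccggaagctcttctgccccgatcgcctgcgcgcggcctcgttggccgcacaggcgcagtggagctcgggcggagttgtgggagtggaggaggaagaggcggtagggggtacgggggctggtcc
SREBF2, chr22:41832855-41833154, plus strand: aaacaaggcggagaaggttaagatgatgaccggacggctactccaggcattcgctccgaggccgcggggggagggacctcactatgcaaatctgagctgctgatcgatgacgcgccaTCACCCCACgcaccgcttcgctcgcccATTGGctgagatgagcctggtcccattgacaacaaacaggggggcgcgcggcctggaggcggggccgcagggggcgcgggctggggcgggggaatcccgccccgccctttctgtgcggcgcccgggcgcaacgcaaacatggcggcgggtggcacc
MYLIP, chr6:16128836-16129135, plus strand: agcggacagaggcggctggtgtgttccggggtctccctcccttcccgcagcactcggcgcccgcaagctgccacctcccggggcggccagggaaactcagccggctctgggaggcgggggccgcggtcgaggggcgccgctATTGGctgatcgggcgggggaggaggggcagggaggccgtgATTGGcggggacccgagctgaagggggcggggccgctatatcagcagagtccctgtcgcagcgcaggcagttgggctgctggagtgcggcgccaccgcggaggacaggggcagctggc

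The sterol regulatory element was in 1 of 9 windows of the 8 genes (INSIG2 has 2 windows), that of SREBF2, and in 1.13% of all 35116 RefSeq windows. In SREBF2 it starts 133 bases before the RefSeq start. Distances here count from that start, which can differ from the gene start in the coordinates given for each gene. CCAAT was in the windows of INSIG1, MYLIP and SREBF2, and in 34.6% of all windows. In SREBF2 its reverse lies 106 bases before the start, downstream of the sterol element, and MYLIP has it at 109 and 68 bases. The E-box was in those of INSIG1 and SCAP and in 7.26% of all windows. The liver X receptor element DR4, searched as AGGTCA repeated after any 4 bases, was in none of the 9 windows and in 0.0199% of all. GC content ran from 58.3% to 78.3% over the 9 windows, with INSIG1 at the top, and its median over all windows was 58.7%. A match is a match of letters, and a window without one says nothing of elements farther away.

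INSIG2, the paralog that also binds SCAP, fell less. INSIG2 (chromosome 2, 118088452 to 118110997, plus strand) stood at 7.57, 6.23 and 7.60 CPM in MGO 1, 3 and 4 and at 29.9, 30.0 and 30.3 CPM in Untreated 1, 2 and 4. The groups were well apart, and MGO 3 was the lowest. Its log2 fold change was -2.07 (SE 0.0739, 95% interval -2.22 to -1.92, adjusted p = 6.31e-22). The lowest count behind these levels was 116, and counting error alone reached 9.28%, beside an SD of 0.785 CPM around a mean of 7.13 CPM in MGO.

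The share of the pair held by each gene shifted. INSIG1 had 2.45, 3.04 and 1.93 counts for each INSIG2 count in MGO 1, 3 and 4, against 10.4 in each of the untreated libraries. The log2 ratio differed by -2.10, or 4.27-fold (exact permutation test, two-sided p = 0.1, which 3 libraries against 3 cannot go below, adjusted p = 0.12 over 6 ratios). A ratio within a library does not depend on depth or scaling. Per kilobase of merged exon, INSIG2 made up 23.3% to 32.4% of the summed INSIG level in MGO libraries and 8.15% to 8.19% in untreated libraries.

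SCAP, the sterol-sensing escort, changed little beside the proteins that hold it back. SCAP (chromosome 3, 47413694 to 47477126, minus strand) stood at 90.5, 80.0 and 85.4 CPM in MGO 1, 3 and 4 and at 127, 124 and 122 CPM in Untreated 1, 2 and 4. No MGO library reached the lowest untreated one. The log2 fold change was -0.55 (SE 0.0421, adjusted p = 2.80e-13). Counts of INSIG1 for each count of SCAP were 0.205, 0.237 and 0.172 in MGO and 2.44, 2.51 and 2.59 in untreated libraries, a difference in log2 ratio of -3.63 (12.4-fold, two-sided exact permutation p = 0.1, adjusted p = 0.12). Per kilobase, both INSIG messages together came to 0.497, 0.544 and 0.448 of SCAP in MGO 1, 3 and 4, against 4.68, 4.82 and 4.97 in Untreated 1, 2 and 4. INSIG messages were thus below SCAP in every MGO library and above it in every untreated one, as messages, since proteins were not measured.

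Both SREBP genes fell by similar, small amounts. SREBF1, which encodes the SREBP-1 forms tied mainly to fatty acid synthesis (chromosome 17, 17810399 to 17837002, minus strand), stood at 40.2, 42.6 and 47.1 CPM in MGO 1, 3 and 4 and at 52.5, 55.1 and 55.1 CPM in Untreated 1, 2 and 4. SREBF2, which encodes SREBP-2, tied mainly to cholesterol (chromosome 22, 41833079 to 41907308, plus strand), stood at 171, 172 and 168 CPM in MGO and at 229, 234 and 234 CPM in untreated libraries. In both genes each MGO library lay below each untreated one. MGO 4 came nearest for SREBF1, and the SREBF2 values of MGO spread by 1.23% (CV). Log2 fold changes were -0.32 for SREBF1 (SE 0.0505, 95% interval -0.42 to -0.22, adjusted p = 8.93e-07) and -0.45 for SREBF2 (SE 0.0365, 95% interval -0.52 to -0.37, adjusted p = 1.05e-12). Tested against a fold of 1.5 in place of 1, neither fall was called, nor were those of SCAP and MBTPS2.

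The balance of SREBF1 to SREBF2 was not shown to differ. Counts of SREBF1 for each count of SREBF2 were 0.235, 0.248 and 0.280 in MGO and 0.229, 0.235 and 0.236 in untreated libraries, ranges that overlap. The log2 ratio differed by 0.12 (two-sided exact permutation p = 0.3, adjusted p = 0.3). Without MGO 4 the difference was 0.05. Both factors fell by far less than INSIG1 (log2 fold change -4.18), so relative to INSIG1 they stood much higher in MGO. SREBF2 had 9.25, 9.06 and 11.4 counts for each INSIG1 count in MGO 1, 3 and 4, against 0.737, 0.751 and 0.740 in Untreated 1, 2 and 4 (13.3-fold, two-sided exact permutation p = 0.1, adjusted p = 0.12). For SREBF1 the same ratio was 2.17, 2.25 and 3.21 in MGO and 0.169, 0.177 and 0.174 in untreated libraries (14.4-fold, with the same p).

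**Figure D2:**
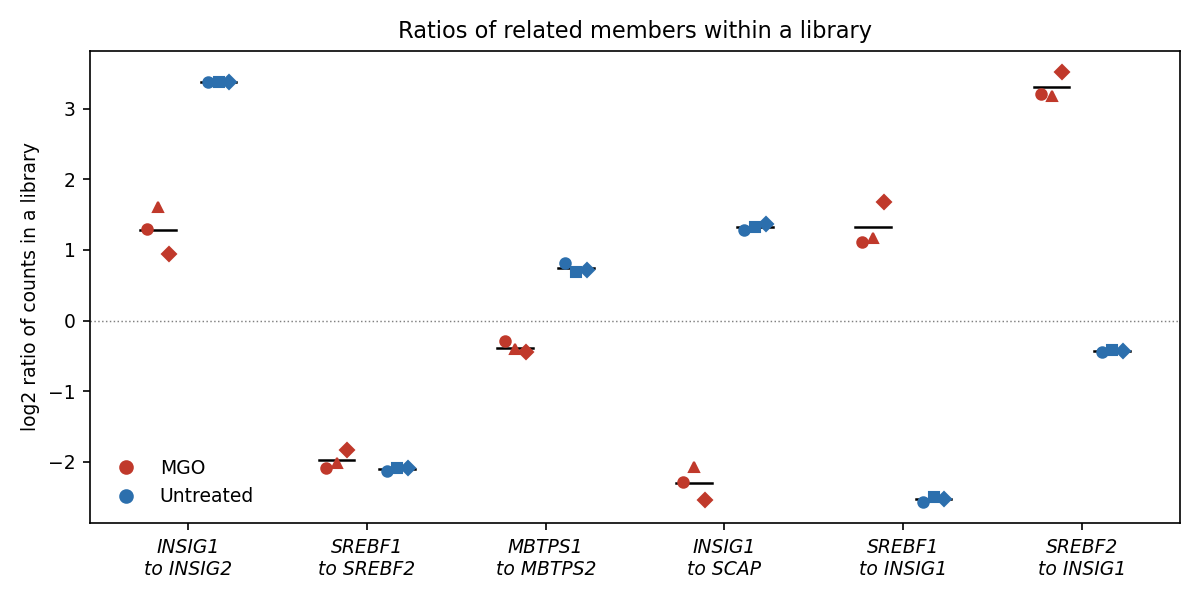
Log2 ratio of raw counts of 2 members within a library (vertical axis) for the 6 ratios, with MGO libraries left of untreated ones, a shape for each library number (circle 1, square 2, triangle 3, diamond 4) and lines at the means. The groups are apart in 5 ratios and overlap for SREBF1 to SREBF2, and the INSIG1 to SCAP ratio is below 0 in MGO and above 0 in untreated libraries.

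The proteases that cut SREBPs did not move by the same amount. MBTPS1, the site-1 protease that makes the first cut in the Golgi lumen (chromosome 16, 84053761 to 84116906, minus strand), stood at 74.0, 73.7 and 75.5 CPM in MGO 1, 3 and 4 and at 233, 222 and 225 CPM in Untreated 1, 2 and 4. MBTPS2, the site-2 protease that cuts next within the membrane (chromosome X, 21839636 to 21885424, plus strand), stood at 90.8, 97.6 and 103 CPM in MGO and at 132, 138 and 137 CPM in untreated libraries. Groups were apart in both, by far more for MBTPS1, whose MGO values spread by 1.36% (CV). The log2 fold change was -1.61 for MBTPS1 (SE 0.0398, 95% interval -1.69 to -1.52, adjusted p = 5.49e-26) and -0.48 for MBTPS2 (SE 0.0424, 95% interval -0.57 to -0.39, adjusted p = 7.01e-12). Counts of MBTPS1 for each count of MBTPS2 were 0.815, 0.754 and 0.734 in MGO and 1.77, 1.61 and 1.64 in untreated libraries, so MBTPS1 was the lower of the pair in each MGO library and the higher in each untreated one. The log2 ratio differed by -1.12, or 2.18-fold (two-sided exact permutation p = 0.1, adjusted p = 0.12).

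MYLIP went the other way. MYLIP, also known as IDOL, is a ubiquitin ligase that liver X receptors induce when sterols are ample and that sends lipoprotein receptors to lysosomes (chromosome 6, 16129125 to 16148248, plus strand). It stood at 38.3, 37.5 and 33.5 CPM in MGO 1, 3 and 4, against 20.8, 21.4 and 22.0 CPM in Untreated 1, 2 and 4. Each MGO library was above each untreated one, and MGO 4 was the nearest to them. The log2 fold change was 0.77 (SE 0.0569, 95% interval 0.65 to 0.88, adjusted p = 1.06e-13). Raw counts, 693, 698 and 705 in MGO and 966, 1023 and 935 in untreated libraries, were lower in MGO, so the rise is seen only once counts are divided by depth. Of the receptors that MYLIP marks, VLDLR averaged 5.04 ± 0.613 CPM in MGO and 23.5 ± 1.29 CPM in untreated libraries (SD, n = 3 each, log2 fold change -2.21, adjusted p = 7.61e-21). LRP8, also a lipoprotein receptor, averaged 12.3 ± 0.901 CPM in MGO and 26.1 ± 0.528 CPM in untreated libraries (log2 fold change -1.09, adjusted p = 7.01e-16). These are levels of messenger RNA, while MYLIP acts on the receptor proteins, which were not measured.

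**Figure D3:**
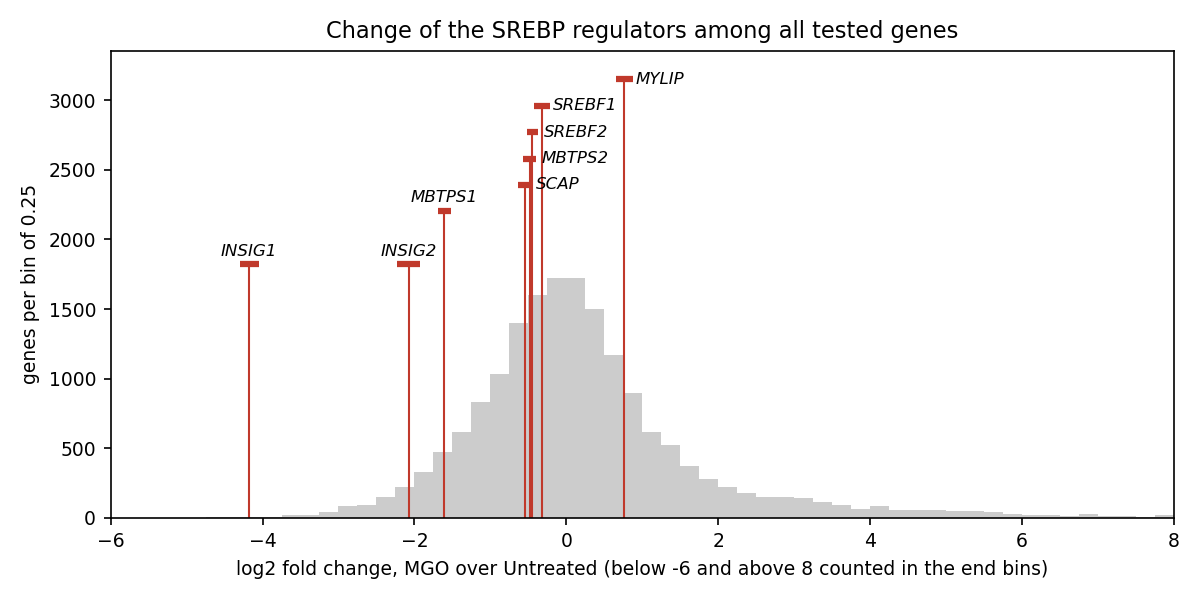
Number of tested genes (vertical axis) by log2 fold change of MGO over untreated libraries (horizontal axis, bins of 0.25), with a line for each SREBP regulator and a thick bar for its 95% interval. INSIG1 at -4.18 lies in the far left tail, INSIG2 and MBTPS1 in the left shoulder, MYLIP right of 0 and the other 4 near the middle.

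Within the MGO group the members did not keep a common order of libraries. MGO 1, 3 and 4 had mitochondrial shares of 8.17%, 6.00% and 5.34%. SREBF1 and MBTPS2 were lowest in MGO 1 and highest in MGO 4, MYLIP was highest in MGO 1 and lowest in MGO 4, and INSIG1 and SREBF2 were highest in MGO 3 and lowest in MGO 4. The spread within a group was larger in MGO for 6 of the 8, INSIG1 (CV 13.5%, against 0.876% in untreated libraries), INSIG2 (11.0%, against 0.603%), SCAP (6.14%, against 2.20%), SREBF1 (8.09%, against 2.73%), MBTPS2 (6.24%, against 2.47%) and MYLIP (7.04%, against 2.65%). It was nearly equal for SREBF2 (1.23%, against 1.25%) and smaller in MGO for MBTPS1 (1.36%, against 2.49%). Counting error alone was larger in the shallower MGO libraries for all 8, reaching 9.28% for INSIG2, against 2.78% in untreated libraries. The untreated CV lay below counting error for INSIG2 and for MYLIP (up to 3.27%). In MGO it did so for SREBF2 (up to 1.80%) and MBTPS1 (up to 2.73%), so their small spread there should not be read as real tightness. How much of the difference in spread goes with depth was not tested. Without both libraries numbered 1, all 8 kept their direction and their call.

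Levels can be compared between genes only per length, here as CPM per kilobase of merged exon in GENCODE 29, which may be longer than the isoforms these cells use. In MGO libraries the order from the top was SREBF2 (22.5 ± 0.277 CPM per kilobase), SCAP (13.3 ± 0.814), MYLIP (12.6, 12.4 and 11.0 in MGO 1, 3 and 4), MBTPS2 (10.9 ± 0.678), MBTPS1 (7.27 ± 0.0986), SREBF1 (5.39 ± 0.436), INSIG1 (4.76 ± 0.643) and INSIG2 (1.81 ± 0.199; SD, n = 3). In untreated libraries it was INSIG1 (85.7 ± 0.750 CPM per kilobase), SREBF2 (30.7 ± 0.384), MBTPS1 (22.1 ± 0.551), SCAP (19.3 ± 0.426), MBTPS2 (15.2 ± 0.375), INSIG2 (7.62 ± 0.0460), MYLIP (7.05 ± 0.187) and SREBF1 (6.75 ± 0.184; SD, n = 3). INSIG1 thus stood in place 7 in MGO and place 1 in untreated libraries, while MYLIP stood in place 3 in MGO and place 7 in untreated libraries. In MGO the ranges of SCAP and MYLIP, of MYLIP and MBTPS2, and of SREBF1 and INSIG1 overlapped. No neighbours overlapped in untreated libraries, though MYLIP and SREBF1 nearly touched (6.87 against 6.86).

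**Figure D4:**
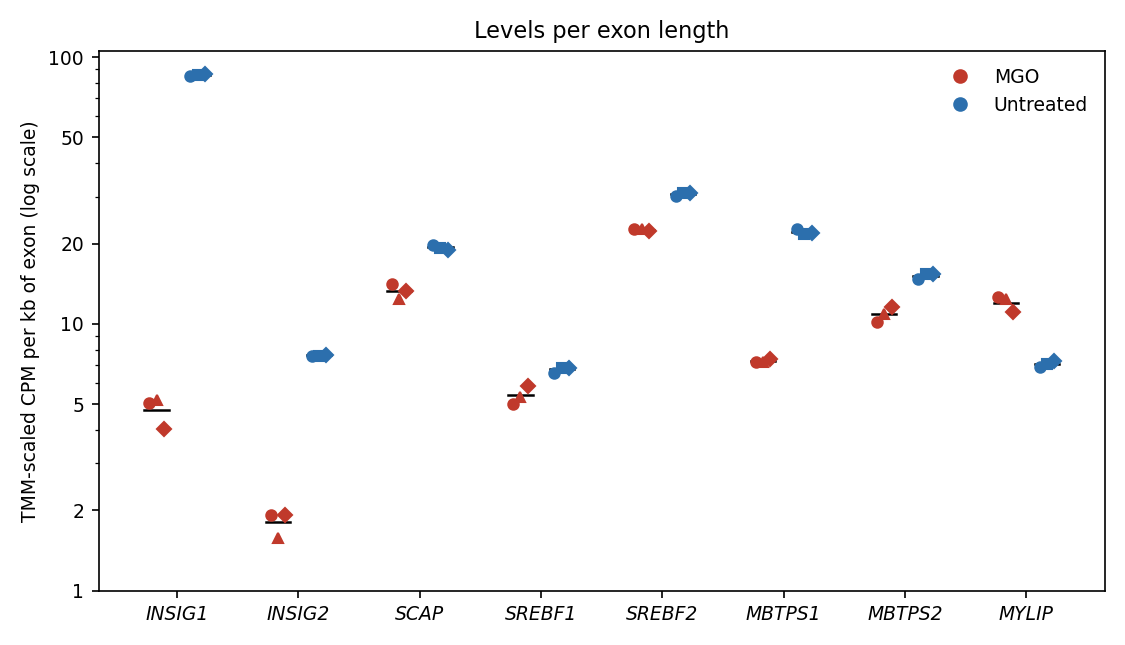
TMM-scaled CPM per kilobase of merged exon (vertical axis, log scale) of the 8 SREBP regulators in each library, MGO left of untreated, with a shape for each library number (circle 1, square 2, triangle 3, diamond 4) and lines at the means. INSIG1 is the highest gene in untreated libraries, at 85.7, and next to lowest in MGO, at 4.76.

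Some members share sequence with other genes. RAI1 overlaps SREBF1 from the opposite strand over 556 exon bases (6.92% of those of SREBF1) and had 690, 770 and 827 counts in MGO 1, 3 and 4 and 2677, 2988 and 2650 counts in Untreated 1, 2 and 4. YY2, an intronless gene on the strand of MBTPS2, shares 1093 bases with it (12.2%), and had 32 to 46 counts in MGO and 69 to 83 counts in untreated libraries. A copy annotated as RF00019, a family name that many loci carry, shares 102 exon bases with MBTPS2 on the same strand, and the row of that name had 391, 283 and 314 counts in MGO and 211, 202 and 209 counts in untreated libraries. No source used here says whether counting used strand, so reads of RAI1 and SREBF1 over the shared bases cannot be told apart. The antisense gene SREBF2-AS1 shares 280 exon bases with SREBF2 and was not analysed here. MIR33A, the microRNA gene inside SREBF2, had 1 count over the MGO libraries and 0 over the untreated ones, and MIR33B, inside SREBF1, had 0 in both, so neither was tested.

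The 5 genes whose pattern over the 6 libraries was most like that of INSIG1 were MGAT3, LPCAT1, SMAD6, HOXA13 and FAM217B. Likeness was the root mean square difference of centred log2 CPM, among 10852 other genes averaging 5 CPM or more over the libraries (clone-based names, LOC, LINC and antisense symbols left out), and it was 0.0955, 0.282, 0.309, 0.314 and 0.330 for the 5. MGAT3, a glycosyltransferase, was closest, at 1.49, 1.34 and 1.28 CPM in MGO 1, 3 and 4 and 23.8, 25.2 and 25.3 CPM in Untreated 1, 2 and 4. LPCAT1, an acyltransferase of phospholipids, stood at 14.9, 11.2 and 11.5 CPM in MGO and 163, 163 and 158 CPM in untreated libraries. In such a pattern the difference between the groups outweighs the differences within them, so the likeness rests mostly on the size of the fall.

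Enzymes that SREBPs induce were lower throughout, by less than INSIG1. All 20 enzymes of cholesterol synthesis fell, with log2 fold changes from -2.99 to -0.11 and a median of -0.87, and so did all 12 of fatty acid synthesis, from -2.43 to -0.32 with a median of -0.91. Of all tested genes 41.2% were called lower, and their median log2 fold change was 0.01. The cholesterol list had 19 lower under several alternatives, MVD being marginal (log2 fold change -0.11, edgeR adjusted p = 0.034). Those with the smallest p included SQLE, squalene epoxidase (log2 fold change -2.09), MSMO1, a sterol oxidase (-2.10), HMGCS1, an early synthase (-1.55), FASN, fatty acid synthase (-1.82), SCD, a desaturase (-1.45), ELOVL6, an elongase (-2.43), and ACLY, ATP citrate lyase (-0.94). The fall of INSIG1 (95% interval -4.30 to -4.05) lay below the whole range of these 32 enzymes, and that of INSIG2 (-2.22 to -1.92) lay within it.

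**Figure D5:**
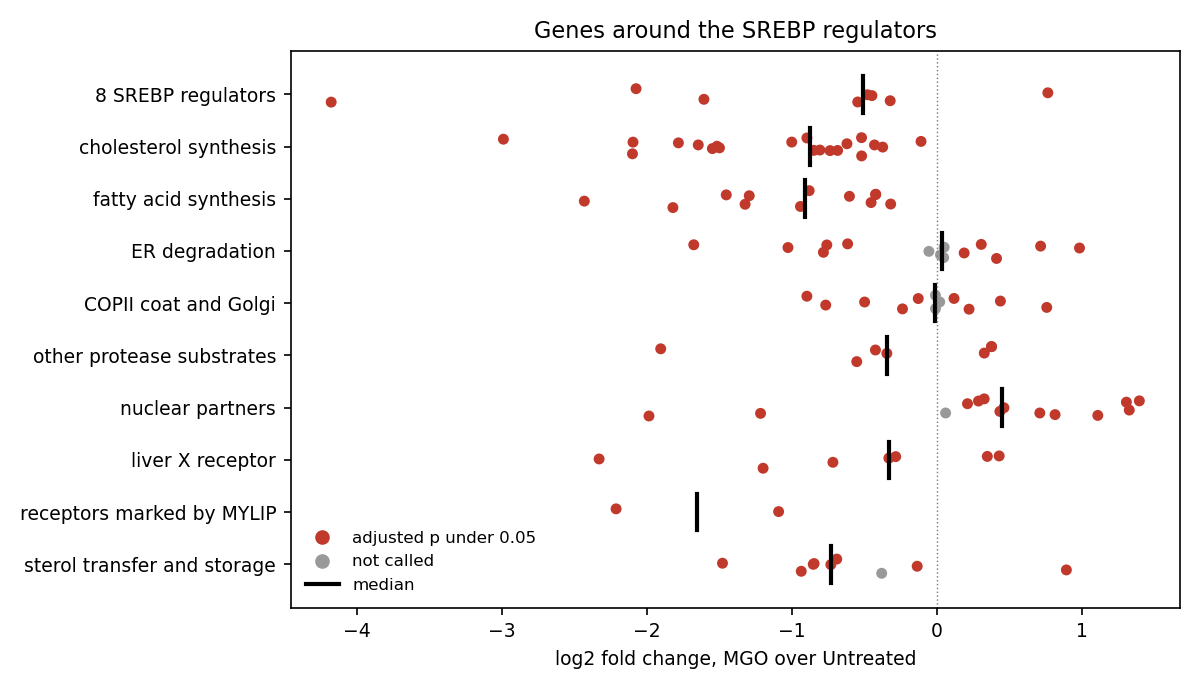
Log2 fold change of MGO over untreated libraries (horizontal axis) for each tested gene of the 8 SREBP regulators and of 9 lists of genes around them, with red points called, grey points not called and black bars at the medians. Both enzyme lists lie wholly below 0, and nuclear partners lie mostly above it.

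Factors that act on the degradation of INSIG proteins and other sterol-regulated ER proteins were split. Among 14 such genes 5 rose, 5 fell and 4 were not called, with a median log2 fold change of 0.04, though 9 were lower with no filter on low counts. Over all tested genes 41.8% were called higher and 41.2% lower, so such a split is common in these data. ERLIN2, a membrane scaffold of ER degradation, averaged 30.7 ± 2.19 CPM in MGO and 98.5 ± 1.44 CPM in untreated libraries (log2 fold change -1.68, adjusted p = 1.78e-24, n = 3 each, edgeR). The ubiquitin ligase RNF145 (log2 fold change -1.03) and VCP (-0.76), the ATPase that pulls marked proteins from the membrane, fell. AUP1, which recruits a ubiquitin-conjugating enzyme, rose (0.98).

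Factors of the route from the ER to the Golgi were split as well. Among 12 such genes 4 rose, 5 fell and 3 were not called, with a median log2 fold change of -0.01, though 8 were lower with library size as the only scaling or with no filter. This split is near that of all tested genes, 41.8% called higher and 41.2% lower. C12orf49, now named SPRING1, which site-1 protease needs to mature, averaged 75.5 ± 2.57 CPM in MGO and 141 ± 4.74 CPM in untreated libraries (log2 fold change -0.90, adjusted p = 4.11e-19, n = 3 each, edgeR). It thus fell along with MBTPS1 itself. Of the COPII coat, SEC23A (log2 fold change -0.50) and SEC24D (-0.77) fell and SEC24A rose (0.76).

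Other membrane proteins that site-1 protease cuts went both ways. Of 7 tested, 3 rose and 4 fell (median log2 fold change -0.34), where 41.8% of all tested genes were called higher and 41.2% lower. GNPTAB, the enzyme precursor of the mannose 6-phosphate tag, fell by 1.90 on the log2 scale and the ER-tethered factor CREB3L2 by 0.55. The related factors CREB3 (log2 fold change 0.38) and ATF6 (0.33) rose.

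Nuclear partners and turnover factors of SREBPs were mostly higher. Among 14 such genes 11 rose, 2 fell and 1 was not called, with a median log2 fold change of 0.45. Of all tested genes 41.8% were called higher and 41.2% lower. The acetyltransferase coactivator EP300 averaged 358 ± 6.09 CPM in MGO and 145 ± 3.25 CPM in untreated libraries (log2 fold change 1.31, adjusted p = 1.13e-24, n = 3 each, edgeR). MED15, the Mediator subunit that SREBPs bind, rose by 1.33 on the log2 scale, and the deacetylase SIRT1 by 1.11. NFYA, a subunit of NF-Y, which binds CCAAT, fell to 13.4 ± 0.592 CPM in MGO, against 53.0 ± 0.966 CPM in untreated libraries (log2 fold change -1.98). The other subunits of NF-Y, NFYB (log2 fold change 0.46) and NFYC (0.71), rose.

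Genes of the liver X receptors, which also induce SREBF1 and MYLIP, went both ways. Of 7 tested, 2 rose and 5 fell (median log2 fold change -0.33), beside 41.8% called higher and 41.2% lower over all tested genes. NR1H2, the receptor LXR beta, rose by 0.43 on the log2 scale and RXRB, a partner, by 0.35. RXRA, the partner RXR alpha, fell to 14.8 ± 0.470 CPM in MGO, against 74.4 ± 3.12 CPM in untreated libraries (log2 fold change -2.33, adjusted p = 2.10e-26, n = 3 each, edgeR). The sterol exporter gene ABCG1, a known target of these receptors, fell to 2.79 ± 0.227 CPM in MGO, against 6.43 ± 0.526 CPM in untreated libraries (log2 fold change -1.20). The other tested targets on this list fell too, as did SREBF1, whereas MYLIP rose. Whether the receptors were more or less active was not tested.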

How the data were processed

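Raw counts per gene symbol were deposited by the authors, 1 table for each of 6 poly(A) RNA-seq libraries, and had not been normalized. The genome build was hg38, per the submitters' processing notes, which name HTSeq 0.9.1, STAR 2.4, Picard and Trim Galore. Settings, annotation and use of strand are not given in those notes or the labels. Every row had a name.

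The counts were tested with edgeR 4.0.16 in R 4.3.3 (filterByExpr, TMM, robust glmQLFit, two-sided glmQLFTest, no covariate, Benjamini-Hochberg over 17415 genes at 0.05), after the test had been tried on simulated counts. Far fewer genes changed in that simulation than in these data, so it does not check scaling or false calls where most genes change. The SE is the log2 fold change divided by the square root of F. Ratios of members were compared by exact permutation, adjusted over 6 ratios. Alternatives were other scalings and filters, each library left out, both libraries numbered 1 left out, thinning, a replicate block, limma 3.58.1 voom, DESeq2 1.42.0 and a test against a fold of 1.5. Coordinates and exon lengths come from GENCODE 29 on GRCh38, the assembly of hg38, and promoters from RefSeq on GRCh38.p14, where all 8 genes matched by symbol.

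Members and lists were chosen with earlier results of these data known. Tested genes named from a list are up to 4 with the smallest p, and also MVD, NFYB and NFYC. A few genes that this rule would name are not reported here. Libraries of a group differed by more than sampling noise (chi-square per degree of freedom 1.88 to 14.7, where noise gives about 1). Nothing in the labels says that the libraries of a group are from separate cultures. The p-values therefore rest on spread among 3 libraries a group, and that spread may be technical. In the edgeR test the spread of a gene itself had 4 degrees of freedom. Spread pooled over all tested genes added a median of 26.2, so those p-values rest more on the pooled spread. Counting errors cover counting only, as the labels name no molecular identifiers.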

Additional observations from a re-analysis of the deposited data

How the results depend on the processing

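The 8 members and GLO1 kept their direction under all 18 alternatives, and their calls under 17 of them. Tested against a fold of 1.5 the calls of SCAP (log2 fold change -0.55), SREBF1 (-0.32), SREBF2 (-0.45) and MBTPS2 (-0.48) were lost, which left 3 members lower. Over all genes that test called 3942 lower and 4363 higher, and over the other lists 39 lower and 10 higher, in place of 62 and 26. With no filter on low counts the median log2 fold change of all genes was 0.20, and members shifted down, INSIG1 to -4.36 and MYLIP to 0.58. With library size as the only scaling that median was -0.10. The COPII and Golgi factors then had 8 lower members, as with no filter, which also gave 9 lower ER degradation factors and 2 higher COPII and Golgi factors. The cholesterol synthesis enzymes had 19 lower in place of 20 under RLE or upper quartile scaling, the filter at 1 CPM, thinning, the replicate block, DESeq2 and without Untreated 4, and 14 against a fold of 1.5. INSIG1 ranged from -4.36 to -4.10 over the alternatives and MYLIP from 0.58 to 0.83.

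Libraries numbered 1 and 4 occur in both groups, but over all genes same-numbered libraries did not deviate together (correlation of deviations 0.02 and -0.01), so the numbers were not taken as pairs. Both libraries numbered 1 had the highest mitochondrial share of their group. With the replicate number as a block, 6673 genes were lower and 6778 higher, all 8 members kept their calls, and the sterol transfer genes had 5 lower in place of 7. Only the libraries numbered 1 and 4 inform that contrast, since every other number occurs in 1 group only. Over numbers 1 and 4, the ratio of INSIG1 to INSIG2 differed by -2.26 on the log2 scale. Counting error limits INSIG2 most, with 116 to 160 counts in MGO libraries.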

Other observations

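Genes of sterol transfer, storage and oxysterol formation were mostly lower in MGO. Of 9 tested, 1 rose, 7 fell and 1 was not called (edgeR, median log2 fold change -0.73). Over all tested genes 41.8% were called higher and 41.2% lower. TMEM97, a membrane protein of sterol handling, averaged 70.8 ± 4.73 CPM in MGO and 198 ± 2.23 CPM in untreated libraries (log2 fold change -1.48, adjusted p = 3.67e-24, n = 3 each). SOAT1, which esterifies cholesterol for storage, fell by 0.85 on the log2 scale and the sterol carrier gene STARD4 by 0.94. OSBP, which carries sterol from the ER to the Golgi, was the only gene of these that rose, at 162 ± 6.56 CPM in MGO and 87.1 ± 0.538 CPM in untreated libraries (log2 fold change 0.89, adjusted p = 1.34e-19).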
